A study of Mus musculus with 11 samples.

Results

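The comparison described here set wild-type mice after transient middle cerebral artery occlusion and reperfusion (MCAO/R + WT, 2 libraries) against wild-type mice after sham surgery (sham + WT, 3 libraries), cell type by cell type. These were 5 of the 11 single-cell RNA sequencing libraries of the series, and they held 52857 of its 125301 retained cells. Cells were chosen by library and by limits on depth alone: more than 500 genes, more than 1000 unique molecular identifiers (UMIs, each standing for 1 captured RNA molecule) and less than 25% mitochondrial UMIs, with predicted doublets removed. All mice of both groups were male C57BL/6 animals of 8 to 10 weeks that carried the intact *Lrg1* gene. In the MCAO/R + WT group a filament blocked the artery for 1 h before flow was restored, whereas the sham + WT group had the operation without occlusion. The time between reperfusion and collection was not given unambiguously for these libraries in the sources used here. Each library came from the right brain tissue of a mouse, dissociated to single cells, with red cells lysed, and measured with droplet 3′ chemistry. The labels named no preparation or sequencing batch, so a batch difference between the groups cannot be told apart from the surgery.

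As background, the middle cerebral artery supplies much of the cortex and striatum, and its occlusion with later reperfusion is a common rodent model of ischemic stroke. Microglia, the resident macrophages of the brain, leave their surveying state after such an injury and take on phagocytic and inflammatory programs. Endothelial cells joined by tight junctions form the blood-brain barrier, pericytes and smooth muscle cells wrap the vessels, astrocytes buffer transmitters and ions, and oligodendrocytes make the lipid-rich myelin sheath. The whole animal also releases glucocorticoid hormone under stress, which acts on gene expression in most cells.

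The sham + WT libraries held 12978, 9497 and 9095 cells and the MCAO/R + WT libraries 9504 and 11783 cells, in replicate order. Median UMIs per cell were 6064 in sham + WT replicate 1 and between 9611 and 11504 in the other 4 libraries. That library also stood apart in holding 3521 cells of clusters that met no naming rule, 27.1% of its cells, against 5.85% to 9.56% in the other libraries. Pairs of libraries shared 18 to 56 cell barcodes, at most 0.449% of the smaller library. Clusters were named from fixed markers. Some genes described below were among these: *Cd163* for border-associated macrophages, and *Cldn5*, *Tek* and *Slc2a1* for endothelial cells. So were *Slc1a2* and *Aqp4* for astrocytes, *Ttr* and *Sostdc1* for choroid plexus epithelial cells, and *Foxj1* for ependymal cells. Every marker of the types tested had UMIs in both groups. Summed microglial markers were nonetheless at 13630 to 14830 CPM (UMIs of a gene per 1000000 UMIs of that type in a library) in sham + WT and at 5681 to 6154 CPM in MCAO/R + WT, and summed oligodendrocyte markers were at 58730 to 59040 CPM and 35550 to 39250 CPM. Ranges of summed markers were also apart and lower after MCAO/R in ependymal cells (11000 to 11490 and 6968 to 7698 CPM), smooth muscle cells (32050 to 33080 and 26520 to 27900 CPM) and pericytes (21500 to 25670 and 14800 to 21040 CPM), and higher in fibroblast-like cells (7945 to 12150 and 16500 to 20450 CPM) and astrocytes (21410 to 22610 and 23680 to 24120 CPM). Microglia, endothelial cells and oligodendrocytes lay in almost fully separate clusters in the 2 groups: microglia of MCAO/R + WT in clusters 2, 9 and 17 and of sham + WT in clusters 1, 3 and 10, endothelial cells in clusters 4, 15 and 32 and in clusters 5, 7 and 22, and oligodendrocytes mainly in cluster 8 and in clusters 6 and 29. The other types shared their clusters between the groups.

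Microglia made up 39.5% of cells (SD 3.91, n = 2) in MCAO/R + WT and 38.1% (SD 4.57, n = 3) in sham + WT, and endothelial cells 23.2% (SD 3.42) and 20.8% (SD 6.88). Both pairs of ranges overlapped (exact permutation test, two-sided, p = 0.8 and p = 0.7). Pericytes, the contractile cells embedded in the capillary wall, took 4.85% and 5.13% of cells after MCAO/R against 2.51% to 3.07% after sham surgery. Neutrophils, granulocytes that enter injured tissue from the blood, took 0.424% and 0.568% against 0.0385% to 0.2%. Choroid plexus epithelial cells, which secrete cerebrospinal fluid, moved the other way, with 0.246% and 1.17% against 1.73% to 2.21%. Capillary endothelial cells of the choroid plexus took 0.11% and 0.295% against 0.401% to 0.572%. None of these 4 pairs of ranges overlapped, and each exact permutation test gave p = 0.1, the smallest value that 2 against 3 libraries can give. B cells, at 0.0679% and 0.116% against 0.396% to 0.794%, did not overlap either (exact permutation test, p = 0.2). Shares count recovered cells, so a change in recovery from the tissue and a change in number cannot be told apart.

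**Figure D1:**
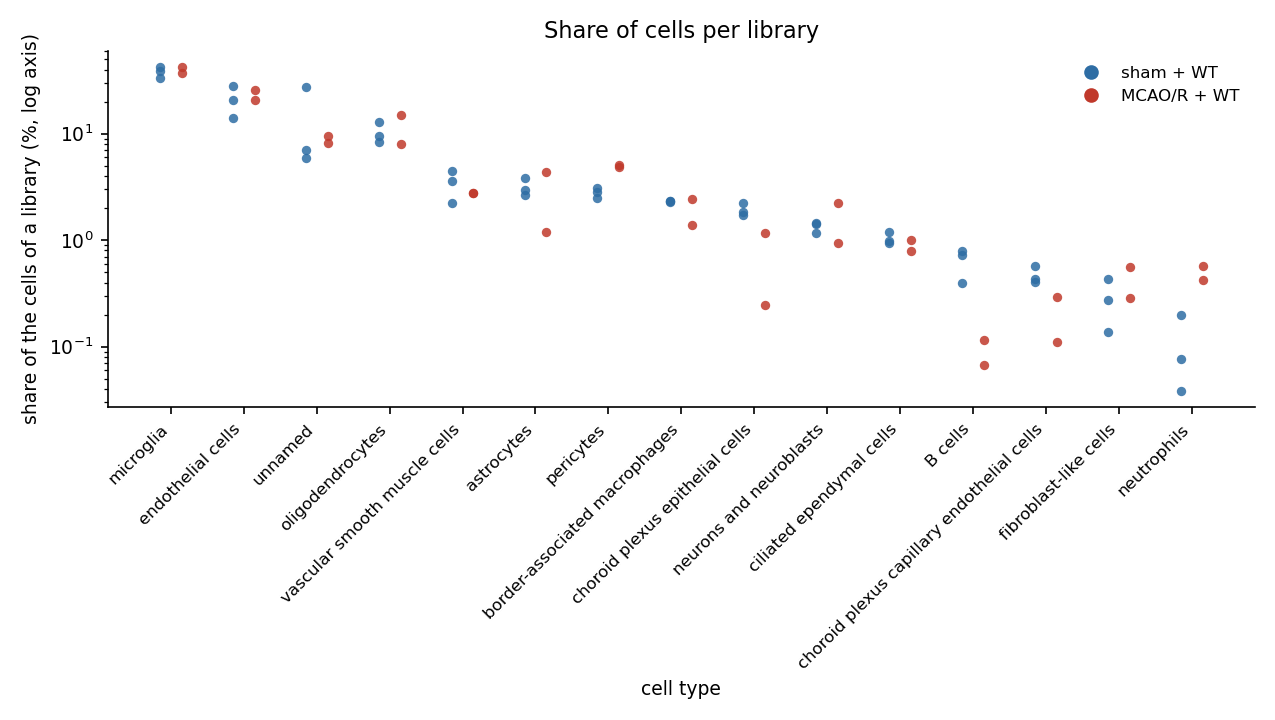
Share of the cells of each library (y axis, percent, log scale) by cell type (x axis), with 1 point per library, sham + WT in blue and MCAO/R + WT in red. Pericytes and neutrophils took a larger share in both MCAO/R + WT libraries than in any sham + WT library, and choroid plexus epithelial cells a smaller one, while the points of microglia and endothelial cells overlapped.

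For gene expression, UMIs were summed per library and cell type, and 11 cell types with at least 2 usable libraries in each group were tested with edgeR's quasi-likelihood test. A gene is called here where its p was below 0.05 after Benjamini-Hochberg adjustment across the genes of that type and its natural-log fold change was past 0.25 in size. Levels of a gene are CPM of the summed UMIs of the genes tested, scaled by edgeR's TMM factors and given in replicate order. Levels in types that were not tested, and summed marker levels, are CPM without that scaling. All fold changes are log2 values of MCAO/R + WT over sham + WT. Oligodendrocytes had the most calls, 2486 genes higher and 2536 lower, which was 33.1% of 15154 genes tested. Microglia followed with 2056 higher and 2089 lower (24.7% of 16812), endothelial cells with 1749 and 2019 (24.2% of 15593) and vascular smooth muscle cells with 986 and 996 (16.6% of 11962). Border-associated macrophages, which live in the meninges and around vessels, had 659 and 616 calls (12.1%), astrocytes 600 and 558 (8.88%), and ciliated ependymal cells 267 and 369 (5.2%). Choroid plexus epithelial cells had 218 and 133 (3.18%), pericytes 164 and 85 (2.26%), and neurons with neuroblasts 46 and 50 (0.832%). Some called genes were at under 10% of their highest level in any type of the group where they were higher. In neurons with neuroblasts these were 43 of the 46 called higher and 29 of the 50 called lower. In choroid plexus epithelial cells they were 75 of 218 and 38 of 133, and in microglia 498 of 2056 and 319 of 2089. The part of RNA from other cells in such calls was not tested. In fibroblast-like cells 1 gene was called (0.012%), *Lcn2*, with 878 genes at an unadjusted p below 0.05 and 113 calls by DESeq2. Depth differed as well, since microglial sums held 38256513 to 53976411 UMIs per library and fibroblast-like sums 462591 to 816969. Where groups are called separate below, no library of one group reached the range of the other. That was so for 61.0% of all genes tested in oligodendrocytes, 56.4% in endothelial cells, 54.3% in microglia, 46.9% in smooth muscle cells, 42.8% in fibroblast-like cells and 42.0% in border-associated macrophages. It was so for 41.8% in astrocytes, 37.6% in ependymal cells, 36.1% in choroid plexus epithelial cells, 30.9% in pericytes and 25.3% in neurons with neuroblasts.

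**Figure D2:**
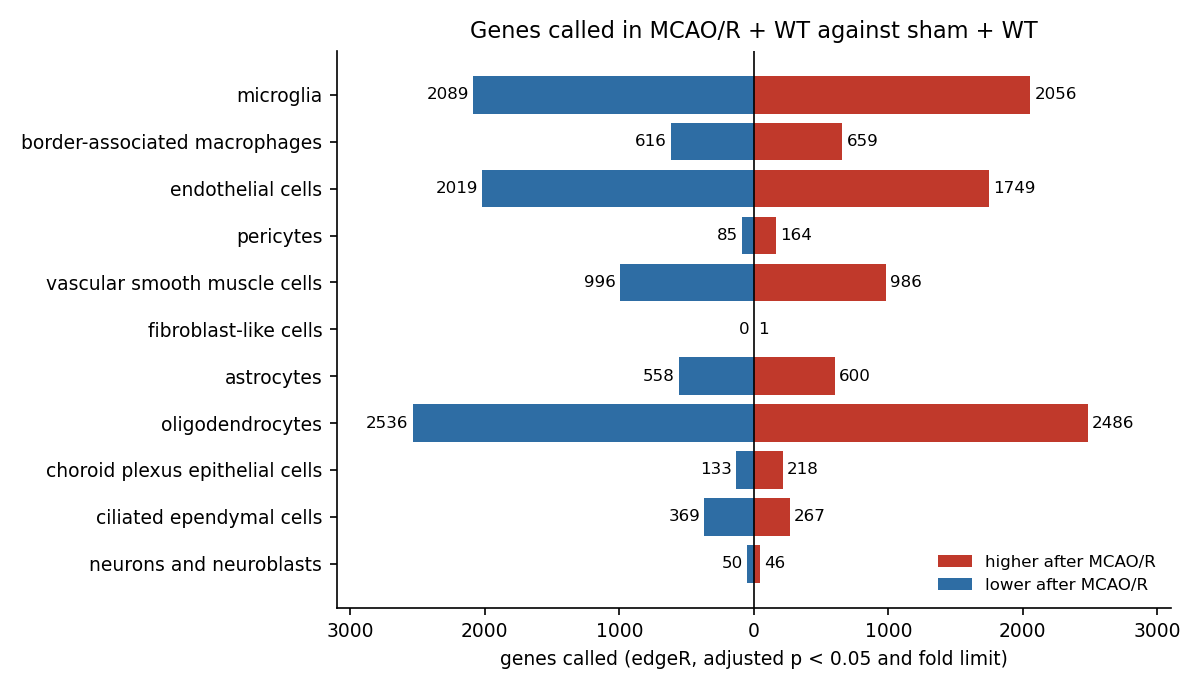
Number of genes called higher (red, to the right) and lower (blue, to the left) in MCAO/R + WT than in sham + WT (x axis) for each cell type (y axis). Oligodendrocytes, microglia and endothelial cells had the most calls, and fibroblast-like cells had 1.

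Most genes called in a direction were called so in a single cell type. Of 5466 genes called higher anywhere, 3497 (64.0%) were called in 1 type and 211 in 5 or more, and of 6173 called lower, 4211 (68.2%) were called in 1 type and 147 in 5 or more. There were 1095 genes called higher in one type and lower in another. The same 5 mice gave all cell types, so calls in several types are not independent. Genes tested ran from 8325 in fibroblast-like cells to 16812 in microglia, and depth differed between types. A call in 1 type alone therefore does not show that other types did not respond.

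Glucocorticoid-responsive genes had members called higher in 10 of the 11 types and none called in fibroblast-like cells. The list of 12 includes *Fkbp5*, a co-chaperone of the glucocorticoid receptor, and *Zbtb16*, a transcription factor. In microglia 9 of 12 were called higher, against 12.2% of all genes tested there. The count was 10 of 12 in endothelial cells (11.2% of all genes), 9 of 12 in pericytes (1.49%) and 10 of 12 in vascular smooth muscle cells (8.24%). Astrocytes had 10 of 12 (4.6%), oligodendrocytes 11 of 12 (16.4%) and border-associated macrophages 9 of 11 tested (6.28%). Choroid plexus epithelial cells had 8 of 12 (1.97%), ciliated ependymal cells 7 of 12 (2.18%), and neurons with neuroblasts 3 of 10 (0.399%). No member was called lower in any type. The median log2 fold change of the list was 4.07 in oligodendrocytes and between 0.51 and 2.01 in the other types, and the median of all genes lay between -0.01 and 0.02 in every type. With each library left out in turn the count stayed at 11 in oligodendrocytes and at 10 in smooth muscle cells. It ranged from 9 to 11 in endothelial cells, from 8 to 10 in astrocytes, from 5 to 8 in pericytes, from 4 to 8 in choroid plexus epithelial cells, from 4 to 7 in ependymal cells, from 1 to 3 in neurons with neuroblasts and from 0 to 6 of 10 in fibroblast-like cells. In microglia and border-associated macrophages it ranged from 7 to 10, and without 1 library a member was called lower in microglia.

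*Fkbp5* (GRCm38 chr17:28399094-28517527, minus strand, protein coding) was called in 9 of 11 types. In astrocytes it was at 499 and 413 CPM after MCAO/R and at 3.92, 4.68 and 3.89 CPM after sham surgery (log2 fold change 6.75, SE 0.18, adjusted p = 4.74e-07). In endothelial cells it was at 208 and 268 CPM against 3.71, 4.03 and 3.66 CPM (5.97, SE 0.14). In microglia the level was 408 and 543 CPM against 34.5, 28.6 and 34.8 CPM (3.87, SE 0.17). Every MCAO/R + WT library was above every sham + WT library in all 3 types. In neurons and neuroblasts *Fkbp5* was at 57.4 and 74.1 CPM against 43.1, 54.5 and 62.1 CPM, with overlapping groups and no call (adjusted p = 0.65). *Zbtb16* in oligodendrocytes was at 528 and 687 CPM against 21.9, 22.2 and 19.4 CPM (4.84, SE 0.14, adjusted p = 2.34e-06), and it was called in 9 of 11 types.

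Heat shock genes, chaperones that refold damaged proteins, had more members called lower than higher in every type but fibroblast-like cells. There none of 13 was called, beside 0.012% of all genes. Of 13 members, 10 were called lower in choroid plexus epithelial cells against 1.2% of all genes there, 7 in endothelial cells (12.9%), 7 in ependymal cells (3.02%) and 6 in smooth muscle cells (8.33%). In pericytes 5 were lower (0.772%), in border-associated macrophages 6 (5.87%), in microglia 6 (12.4%), in oligodendrocytes 4 (16.7%), in astrocytes 3 (4.28%), and in neurons with neuroblasts 2 (0.434%). Members called higher were *Hspa4l* in microglia and *Hspb1*, a small heat shock protein, in oligodendrocytes. Both of these calls were lost with any 1 sham + WT library left out, and that of *Hspb1* also without MCAO/R + WT replicate 1 (adjusted p from 0.0521 to 0.425). With each library left out the lower count ranged from 7 to 10 in choroid plexus epithelial cells, from 6 to 9 in endothelial cells and border-associated macrophages, and from 3 to 7 in ependymal cells. It ranged from 3 to 9 in microglia, where up to 4 were then called higher, from 3 to 5 in smooth muscle cells and pericytes, from 2 to 5 in oligodendrocytes and from 2 to 4 in astrocytes, and it was 1 in neurons with neuroblasts. *Hspa1b*, an inducible Hsp70, was at 41.8 and 36.6 CPM in endothelial cells after MCAO/R and at 328, 837 and 580 CPM after sham surgery (log2 fold change -3.89, SE 0.39, adjusted p = 0.000425). In pericytes it was at 211 and 189 CPM against 840, 1659 and 1301 CPM (-2.66, SE 0.29, adjusted p = 0.00386). All sham + WT libraries were above both MCAO/R + WT libraries in these cells, whereas in ependymal cells the *Hspa1b* groups overlapped (adjusted p = 0.37) and were called lower without MCAO/R + WT replicate 2 (adjusted p = 0.0235). *Hspa1a* and *Hspa1b* are near-identical copies, so the split of reads between them is uncertain.

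Metallothioneins, small cysteine-rich proteins that bind zinc and copper, had all 3 tested members called higher in oligodendrocytes (16.4% of all genes there) and 2 of 3 in microglia (12.2%), border-associated macrophages (6.28%), endothelial cells (11.2%), pericytes (1.49%), astrocytes (4.6%) and ependymal cells (2.18%). In smooth muscle cells (8.24%), choroid plexus epithelial cells (1.97%) and neurons with neuroblasts (0.399%) 1 of 3 was called, in fibroblast-like cells none of 2 (0.012%), and no member was called lower in any type. With some libraries left out no member was called in pericytes, choroid plexus epithelial cells or neurons with neuroblasts. *Mt2* was called higher in 9 of 11 types. *Mt2* in oligodendrocytes was at 825 and 165 CPM against 13.9, 10.1 and 9.0 CPM (log2 fold change 5.48, SE 0.61, adjusted p = 0.000366). In astrocytes it was at 1178 and 864 CPM against 336, 365 and 385 CPM (1.49, SE 0.16, adjusted p = 0.00105). The groups were separate in both types, and the 2 MCAO/R + WT libraries differed several-fold in oligodendrocytes. In pericytes *Mt1* (2.39, adjusted p = 0.0464) and *Mt2* (3.67, adjusted p = 0.0423) were called, and both calls were lost with any 1 of the sham + WT libraries left out (adjusted p from 0.0858 to 0.177).

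The promoters of *Mt2* and *Hspa1b* are shown because these genes moved across many types in opposite directions and their windows hold matches to a motif searched. The windows of *Lcn2* and *Serpina3n*, called higher in 11 and 9 types, held no match to any of the 7 motifs and are not printed. Sequences are from RefSeq (GRCm38.p6), run from 250 bases before the transcript start to 50 after it, and are printed 5′ to 3′ on the gene's own strand. Capitals in the *Mt2* promoter, chr8:94172368-94172667 on the plus strand, mark matches on either strand to TGCNCNC, the core of the metal response element.
Mt2: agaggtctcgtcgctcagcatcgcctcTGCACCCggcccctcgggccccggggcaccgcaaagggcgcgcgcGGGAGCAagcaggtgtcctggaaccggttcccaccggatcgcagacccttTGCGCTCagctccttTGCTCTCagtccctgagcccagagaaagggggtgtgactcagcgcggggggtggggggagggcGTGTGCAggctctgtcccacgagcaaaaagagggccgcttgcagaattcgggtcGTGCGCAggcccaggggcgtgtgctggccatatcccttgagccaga
Capitals in the *Hspa1b* promoter, chr17:34959189-34959488 on the minus strand, mark the match to GAANNTTC, the inverted pair of heat shock element units.
Hspa1b: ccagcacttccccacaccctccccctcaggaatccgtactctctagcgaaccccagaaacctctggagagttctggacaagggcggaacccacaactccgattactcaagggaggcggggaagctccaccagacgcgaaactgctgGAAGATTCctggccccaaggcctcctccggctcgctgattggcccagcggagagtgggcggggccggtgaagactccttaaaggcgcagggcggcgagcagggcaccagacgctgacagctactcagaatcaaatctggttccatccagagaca
The *Mt2* window held 6 matches, beginning at bases 28, 73, 123, 138, 201 and 255. Among 32851 promoters of the same length 51.0% held at least 1 match and 0.225% held 6 or more. *Hspa1b* held 1 match, beginning at base 147, and 7.86% of all promoters held at least 1. The *Hspa1b* window also held 1 match to the metal response element core, not in capitals. That core was in 45.5% of 11 promoters of the genes called higher in most types and in 71.4% of 7 promoters of those called lower. These are matches of letters and not measured sites, and the absence of a match says only that the letters are not in that window.

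Several secreted products were called in nearly every type at levels that differed widely between types. *Lcn2*, encoding the iron-scavenging lipocalin 2, was called higher in all 11 types, although not in ependymal cells with doublets kept (adjusted p = 0.252) or in choroid plexus epithelial cells with all 4 groups of the series in one fit (adjusted p = 0.0883). Its level in endothelial cells was 3934 and 2908 CPM after MCAO/R against 13.7, 23.3 and 9.97 CPM (log2 fold change 7.78, SE 0.36, adjusted p = 2.45e-05). In astrocytes it was at 134 and 48.4 CPM, in pericytes at 119 and 47.3 CPM and in neurons with neuroblasts at 71.5 and 42.8 CPM, with at most 0.904 CPM in any sham + WT library of these 3. Those levels were 2.65%, 2.41% and 1.66% of the highest mean of any type, and only endothelial and fibroblast-like cells were above 10% of it. The part of free RNA, which gives UMIs in droplets of cells that do not express a gene, in these calls was not tested. *Serpina3n*, an acute-phase protease inhibitor, reached 315 and 353 CPM in ependymal cells, 186 and 367 CPM in endothelial cells, 283 and 71.3 CPM in astrocytes and 256 and 94.9 CPM in oligodendrocytes. Its sham + WT levels were at most 8.56 CPM in these 4 types, so the groups did not overlap. *Lrg1*, a leucine-rich glycoprotein, was at 456 and 531 CPM in endothelial cells against 8.48, 25.4 and 7.98 CPM (5.15, SE 0.46, adjusted p = 0.000266). Without TMM scaling it was at 747 and 736 CPM in the 54 and 50 neutrophils after MCAO/R. In sham + WT it was at 59.1, 287 and 223 CPM in only 5, 19 and 7 neutrophils, from 1, 28 and 9 UMIs. Neutrophils were not tested. In microglia *Lrg1* was at 20.9 and 30.5 CPM, also given without TMM scaling, where the sham + WT level was at most 0.406 CPM. *Lrg1* was called in 10 types, and in 1 of these it was at 10% or more of the top type. The part of free RNA in its calls was not tested.

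**Figure D3:**
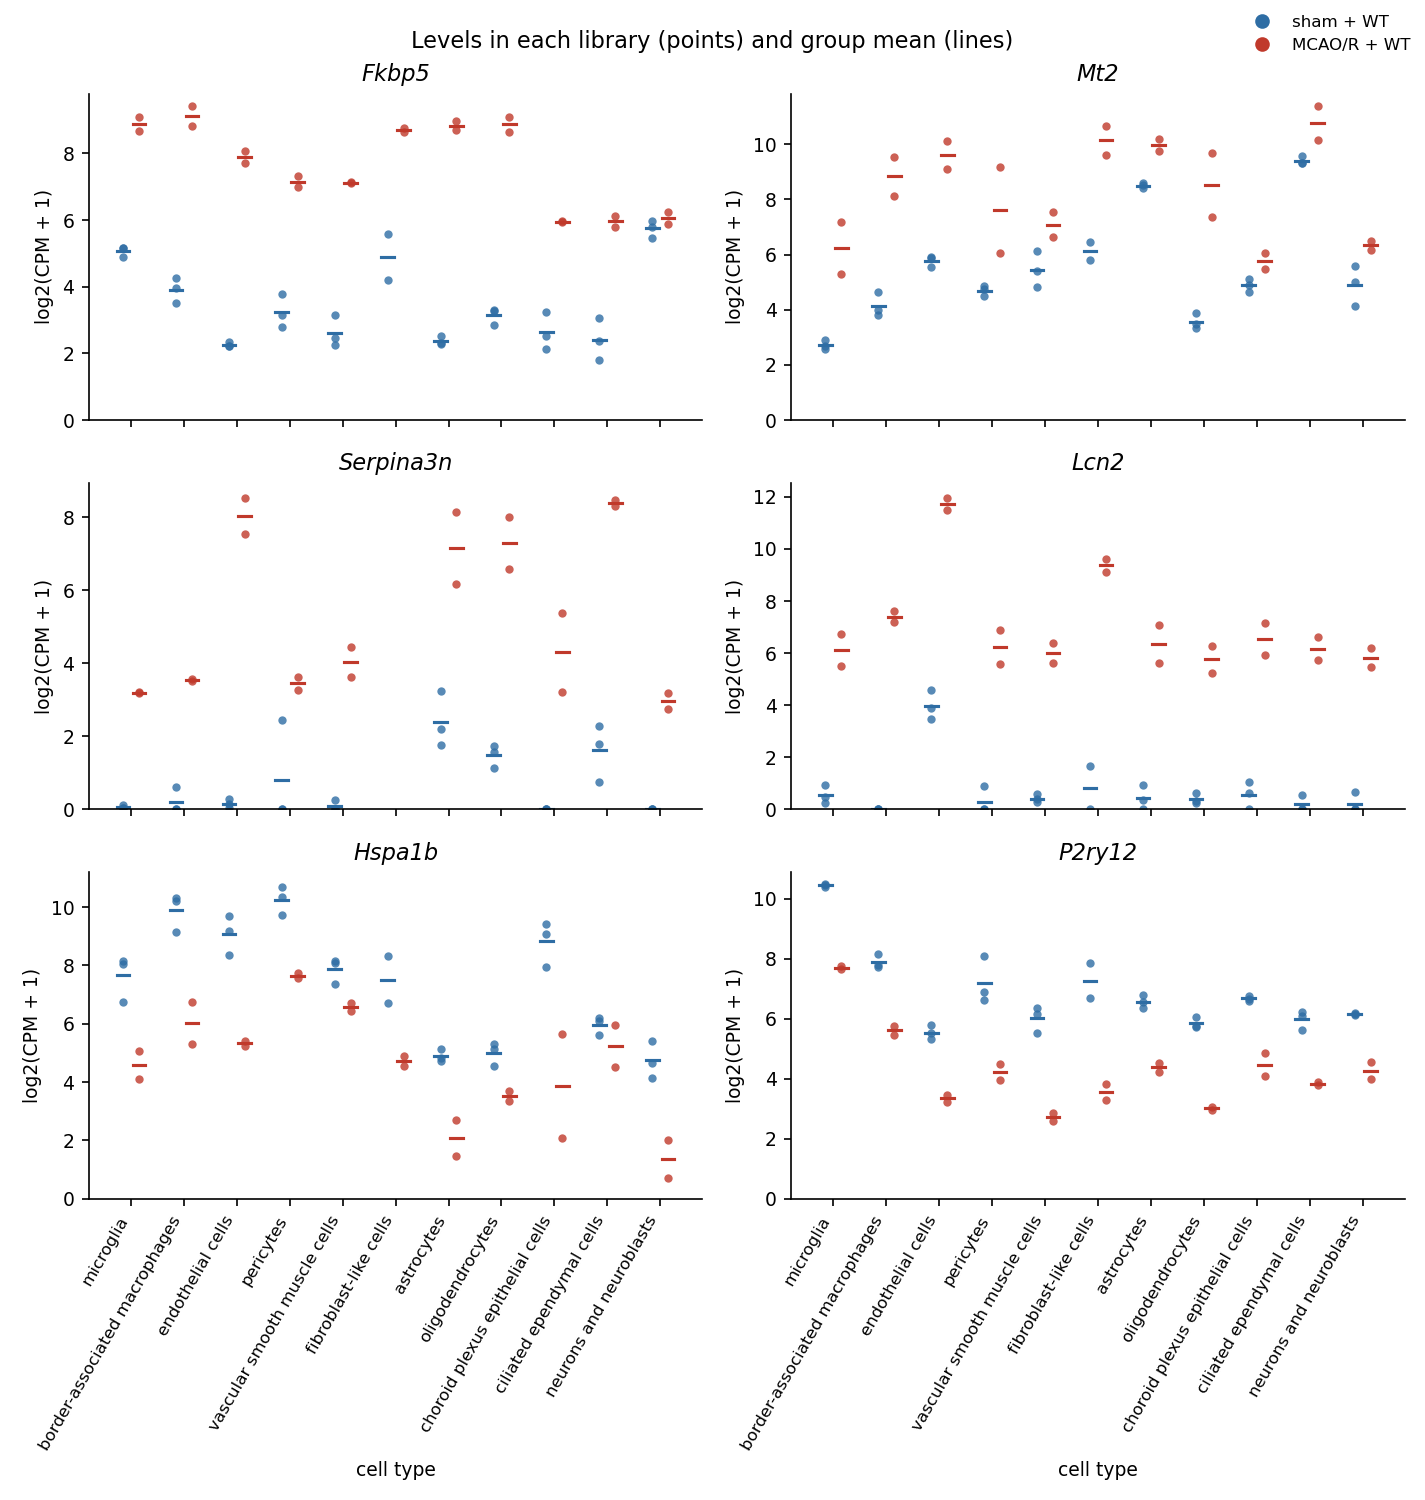
Level of 6 genes (y axis, log2(CPM + 1)) in each cell type (x axis), with 1 point per library, sham + WT in blue, MCAO/R + WT in red, and a line at the group mean. *Fkbp5* and *Mt2* rose in most types, *Lcn2* was highest in endothelial cells, *Hspa1b* was lower after MCAO/R in most types, and *P2ry12* was highest in microglia and fell there.

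All 16 homeostatic genes on the list, transcripts of resting microglia, were called lower in microglia, beside 12.4% of all genes there (median log2 fold change -1.51, and 14 to 16 with each library left out). The same list was called lower in other types as well, with 15 of 16 in oligodendrocytes (16.7% of all genes there), 13 in smooth muscle cells (8.33%), 13 in border-associated macrophages (5.87%) and 11 in endothelial cells (12.9%). Without 1 library these counts stayed between 10 and 15. In astrocytes 12 were lower (4.28%), in choroid plexus epithelial cells 6 (1.2%), in neurons with neuroblasts 6 (0.434%), in pericytes 5 (0.772%), in ependymal cells 2 (3.02%) and in fibroblast-like cells 0 (0.0%). With each library left out these ranged from 5 to 12 in astrocytes, 4 to 5 in choroid plexus epithelial cells, 5 to 10 in neurons with neuroblasts, 2 to 6 in pericytes, 1 to 9 in ependymal cells and 0 to 9 in fibroblast-like cells. The *P2ry12* level of sham + WT oligodendrocytes was 4.10% of that in microglia, and the part of free microglial RNA in these calls was not tested. *P2ry12*, the ADP receptor that guides microglial processes, was at 202 and 214 CPM after MCAO/R and at 1405, 1358 and 1439 CPM after sham surgery (log2 fold change -2.75, SE 0.12, adjusted p = 5.28e-05). *Gpr34*, a lysophosphatidylserine receptor, was at 114 and 112 CPM against 931, 870 and 876 CPM (-2.98, SE 0.12). *Slc2a5*, a fructose transporter, was at 7.77 and 10.5 CPM against 132, 112 and 126 CPM (-3.76, SE 0.18, adjusted p = 8.74e-05), the largest decrease by the naming rule. *Tmem119*, a microglial surface marker, fell less (-1.42, SE 0.12), from 765 to 820 CPM in the sham + WT libraries to 270 and 318 CPM. In each of these 4 genes the groups were far apart and the libraries within a group close together. Some of the 16 genes also served to name microglia.

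*Cd300lf*, an inhibitory myeloid receptor for exposed phospholipid, was at 199 and 133 CPM in microglia against 1.06, 0.931 and 1.46 CPM (log2 fold change 7.17, SE 0.26, adjusted p = 5.28e-05). *Msr1*, a scavenger receptor, was at 333 and 66.9 CPM against 1.11, 1.40 and 1.62 CPM (7.18, SE 0.68), and *Spp1*, the matrix cytokine osteopontin, at 1100 and 48.5 CPM against 7.48, 8.97 and 5.0 CPM (6.33, SE 1.10, adjusted p = 0.00703). The 2 MCAO/R + WT libraries thus differed several-fold in the last 2 genes while both stayed above sham. Without sham + WT replicate 1, *Spp1* was no longer called (adjusted p = 0.0533). Cluster 17, a microglial cluster with 1004 cells in MCAO/R + WT replicate 1 and 20 in replicate 2, was led by *Lgals3* and *Spp1* among others. Its microglial marker score of 0.359 was just above the limit of 0.35 for naming, with 6 markers detected and none among its 10 leading genes. Clusters 2 and 9 of MCAO/R + WT scored 0.516 and 0.499, also with no marker among their leading genes. The sham + WT clusters 1, 3 and 10 scored 0.954, 0.932 and 0.938. No cluster was named as blood monocytes or macrophages derived from them. The part of the mix of clusters other than cluster 17 in the microglial changes was not tested. Without cluster 17, an alternative chosen after the data were seen, 4572 genes were called in microglia against 4145 with it. *Lpl* and *Hspa4l* were then no longer called (adjusted p = 0.0739 and 0.0886). The log2 fold change was then 4.41 for *Spp1*, 3.39 for *Lgals3* and 6.74 for *Msr1*, all still called. Further genes of the naming rule were *Adam8*, a metalloprotease (log2 fold change 6.75, and 4.90 without cluster 17), and *Lilr4b*, an inhibitory immunoglobulin-like receptor (5.80, and 4.29 without it), both higher, and *Olfml3* (-3.10), *Nav2* (-2.98) and *Lst1* (-2.87), lower. The total of calls was 1805 to 2014 without a sham + WT library, 4835 without MCAO/R + WT replicate 1 and 6838 without replicate 2.

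Of 19 disease-associated microglia genes, which mark phagocytic microglia around damage, 11 were called higher and 2 lower, beside 12.2% and 12.4% of all microglial genes, with 6 to 14 higher when each library was left out. *Trem2*, the lipid receptor needed for that state, was among the lower ones, with 651 and 554 CPM against 1396, 1309 and 1268 CPM (log2 fold change -1.14, SE 0.12, adjusted p = 0.0012). *Itgax* was at 4.68 and 2.13 CPM against 2.62, 3.16 and 2.92 CPM, with overlap and no call, and was called higher without MCAO/R + WT replicate 2 (adjusted p = 0.0202). *Lgals3*, encoding galectin 3, was at 361 and 40.9 CPM against 6.03, 5.88 and 4.12 CPM (5.23, SE 0.79). *Lpl*, lipoprotein lipase, was called although its groups overlapped, with 237 and 16.2 CPM against 16.2, 18.0 and 14.9 CPM. Its call was lost with any 1 of the sham + WT libraries left out (adjusted p from 0.123 to 0.148), and without the microglial cluster held almost wholly by MCAO/R + WT replicate 1 (adjusted p = 0.0739). Its log2 fold change fell to -0.01 when MCAO/R + WT replicate 1 was left out.

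Among 11 inflammatory cytokines tested in microglia, 9 were called higher and 1 lower, beside 12.2% and 12.4% of all microglial genes, and between 4 and 10 were higher with each library left out. *Tnf* was at 851 and 636 CPM against 341, 408 and 321 CPM (log2 fold change 1.06, SE 0.16, adjusted p = 0.00428). *Osm*, oncostatin M of the interleukin 6 family, was at 205 and 101 CPM against 25.3, 28.3 and 23.2 CPM (2.58, SE 0.27, adjusted p = 0.00101). *Tgfb1*, a restraining growth factor, fell from 327 to 355 CPM to 187 and 203 CPM (-0.80, SE 0.11, adjusted p = 0.00287). *Il1b* was called at 102 and 65.5 CPM against 17.0, 42.7 and 26.4 CPM (adjusted p = 0.0195), and this call was lost without sham + WT replicate 1 or replicate 3 (adjusted p = 0.0565 and 0.0842) and in one fit of all 4 groups of the series (adjusted p = 0.0709). *Il6* and *Il10* also lost their calls without any 1 sham + WT library, and *Il6* without MCAO/R + WT replicate 1 (adjusted p from 0.0504 to 0.117). CC chemokines had 2 of 10 called higher and 2 lower, beside the same 12.2% and 12.4% of all microglial genes. Of the paired chemokines, *Ccl3* was at 3865 and 3875 CPM against 1381, 1534 and 1150 CPM (1.51, SE 0.14), whereas *Ccl4* was at 7992 and 6066 CPM against 5889, 6789 and 5218 CPM, with overlap and no call. With MCAO/R + WT replicate 2 left out *Ccl4* was called (0.44, adjusted p = 0.0488).

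Antioxidant genes under Nrf2 rose in microglia, with 10 of 13 called higher, beside 12.2% of all genes there, and 5 to 10 when each library was left out. *Hmox1*, which degrades heme, was at 309 and 202 CPM against 81.8, 64.1 and 59.9 CPM (log2 fold change 1.90, SE 0.21, adjusted p = 0.00124). *Slc7a11*, the cystine importer that feeds glutathione synthesis, was at 257 and 80.3 CPM against 10.3, 9.21 and 6.98 CPM (4.26, SE 0.45). Amino acid stress genes of the integrated stress response had 9 of 15 called higher, among them *Trib3*, and none lower. *Plin2*, which coats lipid droplets, was at 470 and 292 CPM against 52.7, 58.5 and 48.8 CPM (2.84, SE 0.20, adjusted p = 0.00025). Ribosomal protein genes had 18 of 40 called higher, and 3 to 19 when each library was left out.

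Border-associated macrophages lay in a single cluster shared by both groups, with 232 and 163 cells after MCAO/R and 302, 217 and 214 after sham surgery. *Spp1* was at 1835 and 1304 CPM against 6.47, 4.69 and 7.75 CPM (log2 fold change 7.95, SE 0.25, adjusted p = 5.73e-07). *Saa3*, an acute-phase serum amyloid, was at 4364 and 603 CPM against 0.924, 2.09 and 1.03 CPM (10.81, SE 0.95, adjusted p = 0.000245). *Jaml*, an adhesion molecule of leukocytes, was at 77.9 and 98.0 CPM and in the sham + WT libraries at no more than 0.462 CPM. *Cd163*, the scavenger receptor for haptoglobin-bound haemoglobin, was at 568 and 360 CPM against 174, 193 and 185 CPM (1.34, SE 0.20, adjusted p = 0.00271). *Hmox1*, which degrades heme, was at 2369 and 1476 CPM against 364, 366 and 386 CPM (2.37, SE 0.19).

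Genes lower in border-associated macrophages included *Clec12a*, an inhibitory lectin receptor, at 10.4 and 3.65 CPM against 128, 118 and 67.6 CPM (log2 fold change -3.76, SE 0.41, adjusted p = 0.000703). *Pla2g2d*, a secreted phospholipase, was at 6.23 and 7.91 CPM against 72.0, 91.8 and 97.6 CPM (-3.65, SE 0.26), and *Tslp*, a cytokine, at 5.88 and 11.0 CPM against 78.0, 76.7 and 101 CPM (-3.42, SE 0.29). All of these groups were separate. *Ttc39c*, *Cd300lf* (log2 fold change 5.61) and *Lgals3* (5.50) were also named higher by the rule. *Hspa1b* (-3.75), *Igfbp4*, an insulin-like growth factor binding protein (-3.36), and *Olfml3* (-3.18) were named lower. The *Olfml3* level of sham + WT border-associated macrophages was 13.19% of that in microglia. The part of free microglial RNA in its call was not tested. The total of 1275 calls became 2071 without MCAO/R + WT replicate 2, 751 without sham + WT replicate 1, 515 without replicate 2 and 486 without replicate 3. Antigen presentation genes of MHC class II had 5 of 6 called lower, beside 5.87% of all genes in these cells, and 1 to 6 when each library was left out. *Cd74*, the class II invariant chain, was at 93.4 and 66.4 CPM against 267, 249 and 184 CPM (-1.53, SE 0.22, adjusted p = 0.00265), which in sham + WT was 2.85% of its level in B cells. B cells were 0.396% to 0.794% of cells in sham + WT and 0.0679% and 0.116% in MCAO/R + WT, and their part in these calls was not tested. Nrf2 genes had 10 of 12 called higher (6.28% of all genes), and 5 to 10 with each library left out.

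In endothelial cells *Doc2b*, a calcium sensor for vesicle fusion, was at 198 and 272 CPM after MCAO/R and at 1.05, 0.895 and 0.523 CPM after sham surgery (log2 fold change 8.20, SE 0.23, adjusted p = 5.19e-06). *Csf3*, the granulocyte growth factor, was at 97.4 and 11.1 CPM against 1.51, 1.16 and 0.279 CPM (5.88, SE 0.96, adjusted p = 0.00391). Both genes were separate between groups, although *Csf3* differed several-fold between the 2 MCAO/R + WT libraries. Among the genes lower, *Gkn3*, found in arterial endothelium, was at 5.60 and 8.65 CPM against 161, 177 and 151 CPM (-4.53, SE 0.19, adjusted p = 1.75e-05). *Alpl*, the tissue-nonspecific alkaline phosphatase, was at 3.15 and 6.16 CPM against 103, 101 and 117 CPM (-4.55, SE 0.25). *Ptn*, the growth factor pleiotrophin, was at 84.8 and 154 CPM against 1135, 1259 and 1259 CPM (-3.35, SE 0.25). *Unc13c*, a vesicle priming factor, was at 1.27 and 1.60 CPM against 88.6, 86.9 and 122 CPM (-6.13, SE 0.23), the largest decrease by the naming rule, and *Lmntd1* was lower too (-3.48). Cluster 7, led by *Gkn3* and *Alpl*, held 38.2% of sham + WT endothelial cells and 2 and 5 MCAO/R + WT cells. Cluster 43, also led by *Gkn3*, was left unnamed, with 30 and 53 MCAO/R + WT cells and 19, 13 and 18 sham + WT cells. Cluster 15, of MCAO/R + WT cells only, had *Lcn2*, *Lrg1*, *Ackr1* and *Csf3* among its leading genes. The part of the mix of clusters in these changes was not tested. The total of 3768 calls became 2461 without sham + WT replicate 3.

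Barrier transporters did not move together, with 4 of 16 called higher and 6 lower in endothelial cells, beside 11.2% and 12.9% of all genes. *Slc2a1*, the main glucose transporter of the barrier, was at 4354 and 5564 CPM against 1568, 1604 and 1641 CPM (log2 fold change 1.63, SE 0.12, adjusted p = 0.000121). *Tfrc*, the transferrin receptor, was at 143 and 220 CPM against 313, 421 and 467 CPM (-1.14, SE 0.22, adjusted p = 0.00799). *Slco1c1*, a carrier of thyroid hormone, fell too (-0.83, SE 0.15), from 1209 to 1444 CPM to 624 and 839 CPM. The efflux pump *Abcb1a* was at 1028 and 1144 CPM against 1087, 1111 and 1175 CPM, with overlapping groups. Of 12 junction genes, 2 were called higher and 1 lower, which is near the 11.2% and 12.9% of all endothelial genes, and with each library left out 1 to 2 were higher and 0 to 4 lower. The lower one, *Cldn5*, the principal claudin of the barrier, was at 3559 and 3348 CPM against 4466, 4914 and 4881 CPM (-0.46, SE 0.10, adjusted p = 0.0134). Its call was lost without sham + WT replicate 2 or replicate 3 (adjusted p = 0.0843 and 0.0874), with the log2 fold change at -0.42 and -0.44. *Ocln* (-0.15, SE 0.10) and *Tjp1* (0.13, SE 0.10), other tight junction components, were not called.

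Interferon-stimulated genes were lower in endothelial cells, with 14 of 20 called lower against 12.9% of all genes there, none higher, and a median log2 fold change of -0.99. Between 12 and 19 were lower with each library left out. MHC class I genes had 8 of 11 called lower and none higher, among them *Psmb8*, an immunoproteasome subunit, at 64.8 and 52.2 CPM against 107, 111 and 119 CPM (log2 fold change -0.94, SE 0.11). The groups did not overlap in this gene. In microglia 2 of 20 interferon-stimulated genes were called higher and 3 lower, near the 12.2% and 12.4% of all genes there, and with each library left out 0 to 13 were higher and 1 to 12 lower. Cluster 10, a microglial cluster, was led by *Ifnb1*, *Ifit2* and *Ifit1*. It held 696, 893 and 539 sham + WT cells and 16 and 12 MCAO/R + WT cells. Its part in the levels of these genes was not tested, nor was the difference between the types.

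The angiogenesis list moved both ways in endothelial cells, with 5 of 19 called higher and 7 lower, beside 11.2% and 12.9% of all genes. *Kdr*, the main receptor for VEGF, was at a mean of 199 CPM (SD 2.0, n = 2) against 378, 444 and 436 CPM (log2 fold change -1.08, SE 0.10, adjusted p = 0.000287), and *Tek*, the angiopoietin receptor, at 256 and 288 CPM against 499, 568 and 607 CPM (-1.04, SE 0.11). *Angpt2*, the ligand that antagonizes *Tek*, was at 88.3 and 46.4 CPM against 9.63, 11.7 and 8.71 CPM (2.76, SE 0.26, adjusted p = 0.000334). Leukocyte adhesion molecules had 2 of 9 called higher and 2 lower, beside 11.2% and 12.9% of all genes in these cells, and with each library left out 1 to 4 were higher and 1 to 3 lower. *Ackr1*, a chemokine receptor of venules, was at 184 and 62.5 CPM against 11.0, 15.9 and 5.89 CPM (3.52, SE 0.50, adjusted p = 0.00204). *Sele*, encoding E-selectin, was at 34.5 and 18.3 CPM against 4.77, 12.9 and 4.29 CPM (adjusted p = 0.0213). The *Sele* call was lost without sham + WT replicate 1 or 3 or without MCAO/R + WT replicate 1 (adjusted p from 0.0681 to 0.0877), and in one fit of all 4 groups of the series (adjusted p = 0.107). *Icam1* and *Vcam1*, docking molecules for leukocytes, had log2 fold changes of 0.22 (SE 0.14) and 0.27 (SE 0.15) and were not called. *Xbp1*, a regulator of protein folding capacity, was at 288 and 189 CPM against 83.0, 94.9 and 80.9 CPM (1.47, SE 0.17), and 8 of 18 folding genes of the endoplasmic reticulum were called higher.

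**Figure D4:**
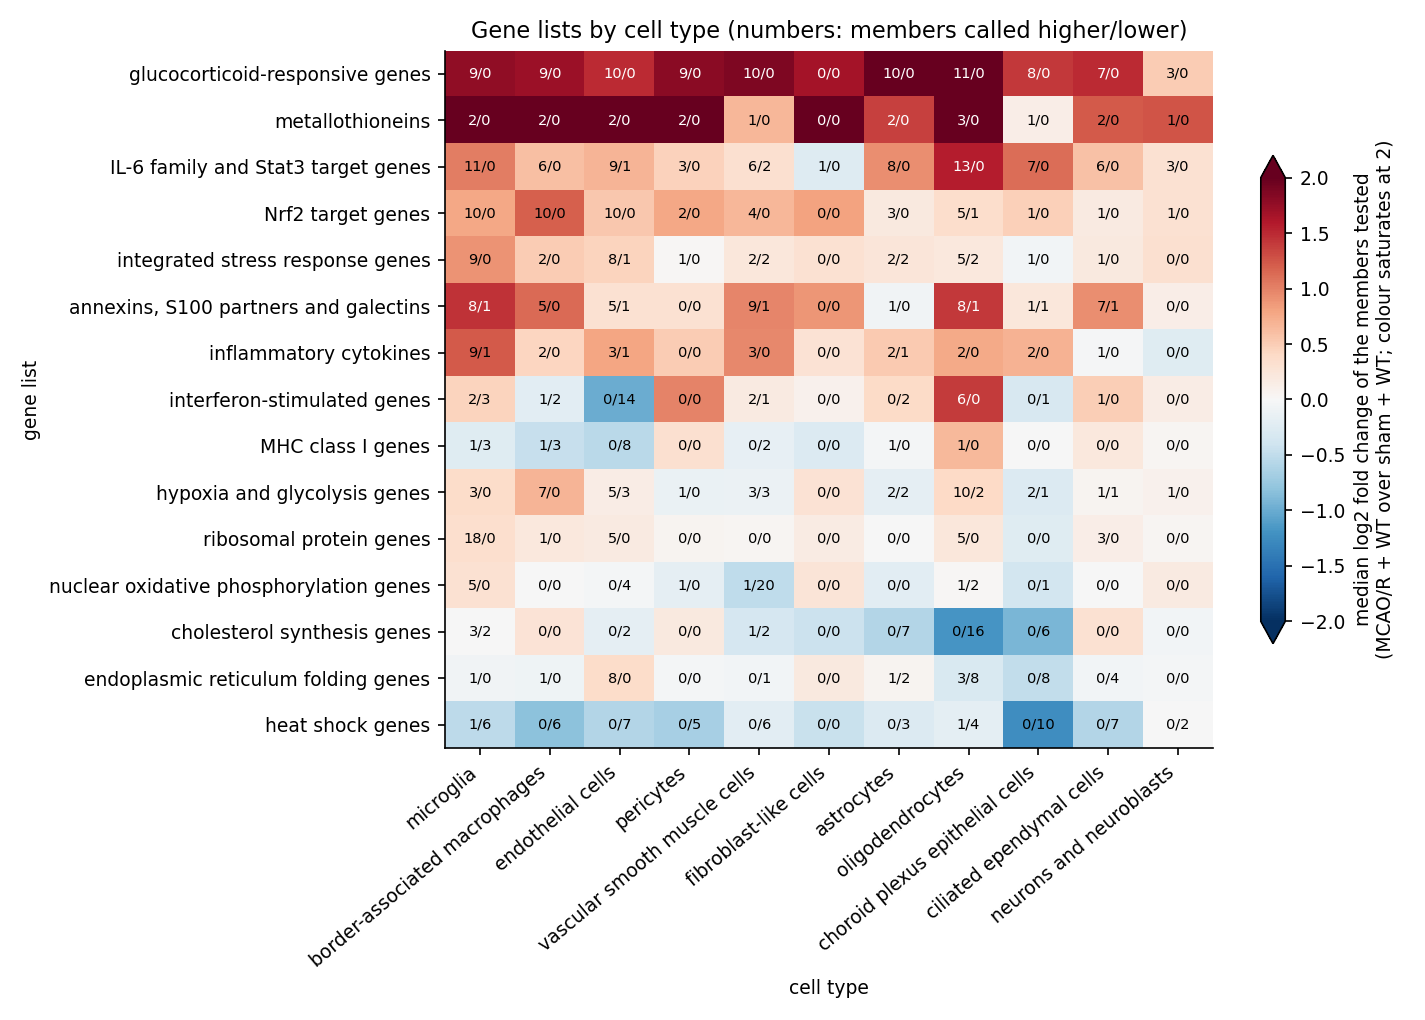
Gene lists (y axis) by cell type (x axis), coloured by the median log2 fold change of the members tested, with the number of members called higher and lower written in each cell. Glucocorticoid-responsive genes were red in each column, heat shock genes blue in most, and interferon-stimulated genes had 14 members lower in endothelial cells.

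In pericytes *Angptl4*, a secreted inhibitor of lipoprotein lipase, was at 357 and 312 CPM against 7.68, 5.16 and 3.53 CPM (log2 fold change 5.87, SE 0.24, adjusted p = 1.95e-05). *Spp1* had its highest mean of any type here, at 4915 and 2852 CPM against 37.8, 173 and 60.04 CPM (5.43, SE 0.56, adjusted p = 0.00374). Cluster 26, a part of this type, had *Spp1* among its leading genes and scored 0.702 for pericytes and 0.388 for microglia. It held 184 and 44 MCAO/R + WT cells and 181, 57 and 46 sham + WT cells. Its part in the pericyte changes was not tested. *Fabp4*, a fatty acid carrier, was at 84.1 and 16.4 CPM with at most 1.28 CPM in sham, and *Stc1*, the hormone stanniocalcin, at 193 and 45.6 CPM against 8.96, 11.8 and 6.18 CPM. Both latter calls were lost without sham + WT replicate 2 or replicate 3 (adjusted p from 0.0887 to 0.0977). *Hsph1*, a partner of Hsp70, was at 43.3 and 43.8 CPM against 171, 330 and 247 CPM (-2.52, SE 0.28). The genes lower by most in pericytes included microglial ones: *P2ry12* was at 21.6 and 14.6 CPM against 272, 97.4 and 117 CPM, and *Gpr34* (log2 fold change -3.50), *Siglech* (-2.81) and *Csmd3* (-3.17) were lower as well. *Siglech* lost its call without sham + WT replicate 2 or 3 or without either MCAO/R + WT library (adjusted p from 0.0595 to 0.0724). Summed microglial transcripts in pericytes were at 2271 and 1256 CPM in MCAO/R + WT and at 4829, 1850 and 2029 CPM in sham + WT, and their part in these calls was not tested. The pericyte total of 249 calls fell to 44 without sham + WT replicate 2 and to 63 without replicate 3.

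Vascular smooth muscle cells shared the *Angptl4* increase, at 234 and 152 CPM against 1.53, 0.993 and 1.24 CPM (log2 fold change 7.24, SE 0.27, adjusted p = 2.36e-07). *Galnt15*, which starts mucin-type sugar chains, was at 118 and 107 CPM against 4.89, 5.46 and 4.76 CPM (4.47, SE 0.15, adjusted p = 1.34e-07). *Pdk4*, which restrains pyruvate oxidation, was at 57.4 and 54.8 CPM against 17.7, 15.1 and 14.3 CPM (1.84, SE 0.15). The libraries of a group were close together in *Galnt15* and *Pdk4*. *Fabp4* was at 85.9 and 51.5 CPM against 0, 3.97 and 0.414 CPM (5.50, SE 0.51), and *Arrdc2* rose as well (4.03). Nuclear genes for oxidative phosphorylation had 20 of 28 called lower and 1 higher in smooth muscle (8.33% and 8.24% of all genes), with a median log2 fold change of -0.50 and 13 to 20 lower when each library was left out. *Ndufa4*, a respiratory chain subunit, was at 237 and 202 CPM against 448, 373 and 380 CPM (-0.87, SE 0.12, adjusted p = 0.000833), and *Atp5b*, an ATP synthase subunit, at 473 and 488 CPM against 685, 676 and 685 CPM (-0.51, SE 0.09).

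Contractile genes of smooth muscle had 2 of 14 called higher and 4 lower, beside 8.24% and 8.33% of all genes in these cells. *Acta2*, *Tagln*, *Cnn1* and *Myh11* also served to name the type. *Acta2*, smooth muscle actin, was at 10510 and 10270 CPM against 15230, 14330 and 14300 CPM (log2 fold change -0.49, SE 0.08, adjusted p = 0.00199), while *Tagln*, an actin-binding protein, was at 10160 and 11290 CPM against 9819, 9438 and 9690 CPM and was not called. *Cnn1*, calponin, was called lower. Its call was lost without sham + WT replicate 1 or 2 (log2 fold change -0.618 and -0.683, adjusted p = 0.112 and 0.107) and with DESeq2 (-0.691, adjusted p = 0.157). Without MCAO/R + WT replicate 2 its log2 fold change was -0.351. *Myh11*, the smooth muscle myosin, was also called lower. Its call was lost in one fit of all 4 groups of the series (-0.415, adjusted p = 0.222), and its log2 fold change was -0.359 without MCAO/R + WT replicate 1. *Fbxl22*, a muscle ubiquitin ligase component, was at 22.9 and 31.8 CPM against 214, 193 and 244 CPM (-2.98, SE 0.17, adjusted p = 2.77e-06). *Ramp1*, the co-receptor for the dilator peptide CGRP, was at 17.9 and 25.6 CPM against 179, 162 and 171 CPM (-2.96, SE 0.15). *Rrm1*, a ribonucleotide reductase subunit (-2.40), *Nrep* (-2.23), *Susd5* (-2.07) and *Bmp6*, a bone morphogenetic protein (-2.04), were also lower. The total of 1982 calls became 1317 without MCAO/R + WT replicate 1 and 1216 without sham + WT replicate 2. Annexins, S100 partners and galectins had 9 of 14 called higher and 1 lower, beside the same shares, and 8 to 11 higher with each library left out. *Anxa1*, an anti-inflammatory annexin, was at 312 and 313 CPM against 106, 95.3 and 132 CPM (1.49, SE 0.13), and *S100a6*, a calcium-binding protein, at 499 and 353 CPM against 93.9, 88.9 and 143 CPM (1.96, SE 0.20).

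Fibroblast-like cells were few, with 53 and 34 cells after MCAO/R and 26 and 39 in the 2 sham + WT libraries used, while sham + WT replicate 1 had 18 cells and was left out. *Lcn2* was at 553 and 791 CPM against 2.16 and 0 CPM (adjusted p = 0.0406), and its call was lost without either MCAO/R + WT library (adjusted p = 0.188 and 0.235), while 127 genes were called without sham + WT replicate 2 and 525 without replicate 3. *Fkbp5* was at 401 and 434 CPM against 17.3 and 46.7 CPM (log2 fold change 3.66, SE 0.47, adjusted p = 0.101) and was called without either sham + WT library, without the filter on low counts and by DESeq2. *Col1a1*, a fibrillar collagen chain, was at 615 and 423 CPM against 457 and 526 CPM, with overlapping groups.

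In astrocytes the largest increases by the naming rule were those of *Plin4* and *Fkbp5*. *Plin4*, a lipid droplet coat protein, was at 56.8 and 54.2 CPM against at most 0.827 CPM. *Sgcd*, a membrane sarcoglycan, was at 890 and 396 CPM against 48.8, 70.8 and 64.6 CPM (log2 fold change 3.37, SE 0.31, adjusted p = 0.00068), and *Slc24a4*, a sodium-calcium exchanger, at 43.4 and 62.9 CPM against 3.92, 3.86 and 2.72 CPM (3.92, SE 0.25). *Pla2g3*, a secreted phospholipase, rose too (3.47). Of 21 reactive astrocyte genes 6 were called higher, beside 4.6% of all genes in these cells, and none lower, and 2 to 14 were higher with each library left out. *Gfap*, the intermediate filament that marks reactive astrocytes, was at 625 and 208 CPM against 41.6, 80.7 and 98.1 CPM (2.48, SE 0.45, adjusted p = 0.0105). Cluster 30, led by *Gfap*, *Igfbp5* and *Fabp7* and scored best as astrocytes, was left unnamed, so astrocyte values leave it out. It held 91 and 123 MCAO/R + WT cells and 72, 60 and 36 sham + WT cells, and its effect was not tested. *Vim*, another intermediate filament, was at 108 and 68.3 CPM against 87.0, 41.9 and 47.5 CPM, with overlap and no call. *Osmr*, the oncostatin M receptor, was at 133 and 42.6 CPM against 15.4, 13.8 and 14.8 CPM (2.48, SE 0.42). Without sham + WT replicate 2 the calls of *Gfap* (adjusted p = 0.0655), *Osmr* (0.0587) and *Tenm4* (0.0764) were lost. Without sham + WT replicate 1 *Vim* was called (adjusted p = 0.0447). The total of 1158 calls became 426 without sham + WT replicate 2 and 755 without MCAO/R + WT replicate 1.

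Homeostatic astrocyte genes had 2 of 16 called higher and 1 lower, beside 4.6% and 4.28% of all genes in these cells, and with each library left out 1 to 2 were higher and 0 to 1 lower. The glutamate transporter *Slc1a2* was at 10870 and 11040 CPM against 9374, 9596 and 7908 CPM (log2 fold change 0.29, SE 0.14), the water channel *Aqp4* at 578 and 456 CPM against 612, 660 and 680 CPM (-0.34, SE 0.14) and glutamine synthetase *Glul* at 1423 and 2199 CPM against 1779, 1670 and 1439 CPM (0.15, SE 0.19). None of the 3 was called. *Tnc*, the matrix protein tenascin C, was at 12.6 and 15.2 CPM against 67.8, 70.0 and 80.9 CPM (-2.33, SE 0.18, adjusted p = 0.000325), and *Fabp7*, a fatty acid carrier of immature astrocytes, at 31.6 and 44.0 CPM against 113, 157 and 195 CPM (-1.97, SE 0.25). *Tenm4*, a teneurin (-2.40), *Mpped2* (-2.17), *Lhfpl2* (-1.93) and *Disp3* (-1.83) were also lower. Cholesterol synthesis genes had 7 of 17 called lower (4.28% of all genes) and none higher, and 5 to 7 with each library left out. *Hmgcs1*, which makes the HMG-CoA precursor, was at 80.5 and 105 CPM in astrocytes against 227, 204 and 206 CPM (-1.17, SE 0.15, adjusted p = 0.00261).

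In oligodendrocytes 16 of 17 cholesterol synthesis genes were called lower, beside 16.7% of all genes there, and none higher, with a median log2 fold change of -1.18 and 15 to 17 lower when each library was left out. *Hmgcs1* was at 121 and 176 CPM against 588, 579 and 582 CPM (log2 fold change -1.97, SE 0.16, adjusted p = 7.78e-05). *Idi1*, an isomerase of the isoprenoid steps, was at 41.3 and 48.5 CPM against 159, 149 and 149 CPM (-1.76, SE 0.10), and *Sqle*, squalene epoxidase, at 48.2 and 40.1 CPM against 80.2, 77.7 and 76.8 CPM (-0.83, SE 0.10). The groups were separate in all 3 genes.

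Myelin genes in oligodendrocytes had 17 of 21 called lower (16.7% of all genes) and none higher, with a median of -0.80 and 14 to 18 lower when each library was left out. *Ugt8a*, which makes the galactolipids of myelin, was at 254 and 284 CPM against 1096, 1246 and 1268 CPM (log2 fold change -2.16, SE 0.12, adjusted p = 1.71e-05). *Mbp*, myelin basic protein, was at 2388 and 3028 CPM against 3341, 3602 and 3475 CPM and did not pass (-0.36, SE 0.14, adjusted p = 0.0728), nor did *Mobp*, at 2306 and 2527 CPM against 1720, 2085 and 1929 CPM (0.34, SE 0.12, adjusted p = 0.0641). *Mbp* was called without MCAO/R + WT replicate 2, with doublets kept and by DESeq2, and *Mobp* without MCAO/R + WT replicate 1. Some myelin genes also served to name the type. *Enpp6*, which marks newly forming oligodendrocytes, was at 10.8 and 14.2 CPM against 177, 184 and 226 CPM (-3.94, SE 0.17, adjusted p = 6.53e-06), and *Padi2*, an enzyme that citrullinates myelin proteins, at 10.5 and 10.2 CPM against 89.6, 98.9 and 95.4 CPM (-3.20, SE 0.10). *S100b*, a calcium-binding protein, was at 17.0 and 12.6 CPM against 211, 205 and 311 CPM (-4.05, SE 0.24), and *Mob3b* (-4.06), *Tenm2* (-3.83) and *Bfsp2* (-3.19) were also lower. Cluster 29, led by *Klk6*, *S100b* and *Enpp6*, held 426 sham + WT cells, 13.2% of the oligodendrocytes of that group, and no MCAO/R + WT cell. Without it, an alternative chosen after the data were seen, the log2 fold change was -1.51 for *S100b*, -2.86 for *Enpp6*, -3.14 for *Mob3b* and -2.86 for *Padi2*, and all 4 were still called lower. With the unnamed MCAO/R + WT cluster led by *Apod* and *Klk6* counted as oligodendrocytes, also chosen after the data were seen, it was -1.70 for *S100b*, -2.23 for *Enpp6*, -2.77 for *Mob3b* and -2.93 for *Tenm2*, again all called. Without cluster 29 the counts were 17 of 21 for myelin genes and 15 of 17 for cholesterol synthesis genes, with *Idi1* at -1.41 and *Sqle* at -0.49, and 4431 genes were called in all.

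Genes that rose in oligodendrocytes were led by *Hif3a*, a hypoxia-inducible factor subunit, at 106 and 115 CPM against 1.32, 1.08 and 0.991 CPM (log2 fold change 6.59, SE 0.13, adjusted p = 4.7e-07). *Tspan4*, a tetraspanin, was at 250 and 315 CPM against 4.39, 4.21 and 5.28 CPM (5.95, SE 0.15). *Cdkn1a*, the cell cycle inhibitor p21, was at 1139 and 1109 CPM against 25.2, 19.4 and 16.6 CPM (5.78, SE 0.17), and *Sgk1*, a glucocorticoid-induced kinase, at 1891 and 2222 CPM against 99.4, 77.8 and 56.1 CPM (4.72, SE 0.23). The 2 MCAO/R + WT libraries were close to each other in these 4 genes. *Cdh18*, a cadherin (6.51), and *Pdzrn4* (6.04) were also among the largest increases. *Tsc22d3*, also a glucocorticoid target, was the member of its list that was not called, at 111 and 145 CPM against 124, 125 and 109 CPM. Stat3 and interleukin 6 family genes had 13 of 15 called higher (16.4% of all genes), among them *Socs3*, the feedback inhibitor, at 87.9 and 82.8 CPM against 31.0, 23.8 and 22.7 CPM (1.72, SE 0.14, adjusted p = 6.42e-05).

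The MCAO/R + WT oligodendrocyte libraries disagreed in other injury genes. Of 14 genes known from injured oligodendrocytes, 9 were called higher and 1 lower, beside 16.4% and 16.7% of all genes in these cells. The lower one, *Klk6*, a secreted protease, was at 63.5 and 6.20 CPM against 148, 145 and 186 CPM (adjusted p = 0.0457). Its call was lost with any 1 sham + WT library left out (adjusted p from 0.093 to 0.115) and with a further MCAO/R + WT cluster led by *Apod* and *Klk6*, left unnamed, counted as oligodendrocytes (adjusted p = 0.354), an alternative chosen after the data were seen. That cluster held 720 MCAO/R + WT cells and no sham + WT cell. It scored 0.829 for oligodendrocytes, against 0.824 for cluster 8, with 10 markers detected. It was left unnamed for its leading genes alone, so the main oligodendrocyte values leave it out. With it, 4794 genes were called in oligodendrocytes. Without cluster 29 of sham + WT the *Klk6* difference turned direction, with a log2 fold change of 2.02 against -2.26 with it, and was not called (adjusted p = 0.0764). On the same cells as the edgeR call DESeq2 did not call *Klk6* (adjusted p = 0.0949). *Il33*, an alarmin, was at 542 and 86.4 CPM against 465, 381 and 378 CPM, so the 2 MCAO/R + WT libraries lay on opposite sides of sham. Interferon-stimulated genes had 6 of 17 called higher, beside 16.4% of all genes. *Ifit3* was at 60.2 CPM in MCAO/R + WT replicate 1 and at 0.976 CPM in replicate 2, against 1.57, 2.97 and 2.23 CPM in sham + WT. Without MCAO/R + WT replicate 1, 1 member of the 18 then tested was called higher and 8 lower, without replicate 2, 18 of the 20 then tested were called higher, and without any 1 sham + WT library none was called. The *Ifit3* call (adjusted p = 0.0448) was lost without any 1 sham + WT library and without cluster 29 (adjusted p = 0.0553) and with DESeq2 (adjusted p = 0.0523), and its log2 fold change fell to -1.21 without MCAO/R + WT replicate 1.

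**Figure D5:**
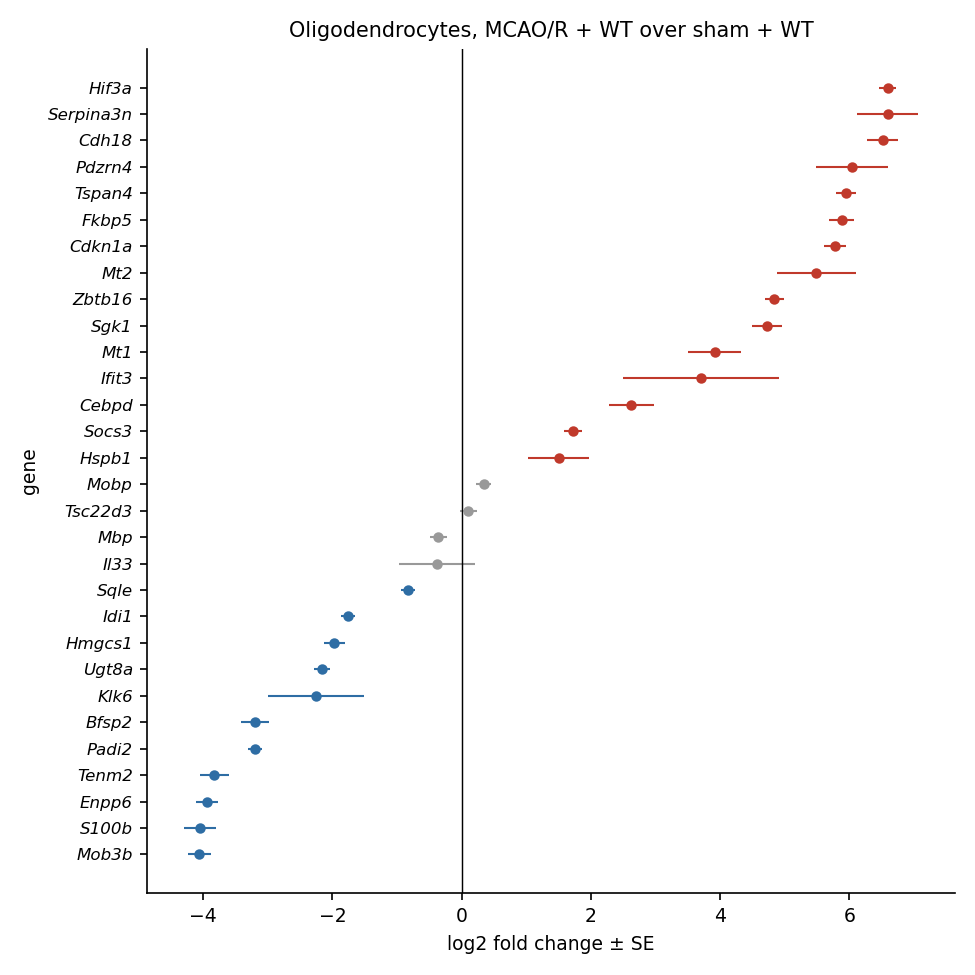
Log2 fold change with its SE (x axis) of the oligodendrocyte genes named in the text (y axis), red where called higher, blue where called lower and grey where not called. Values ran from -4.06 for *Mob3b* to 6.59 for *Hif3a*, with *Hmgcs1*, *Idi1*, *Sqle* and *Ugt8a* among the lower genes and *Mbp* and *Mobp* not called.

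Choroid plexus epithelial cells had 111 and 29 cells after MCAO/R and 237, 210 and 157 after sham surgery. *Ttr*, the thyroxine carrier that dominates their RNA, was at 218100 and 211400 CPM against 207500, 224800 and 217200 CPM, with overlap and no call. *Sostdc1*, a secreted antagonist of Wnt and BMP signals, was at 237 and 127 CPM against 792, 710 and 766 CPM (log2 fold change -2.02, SE 0.24, adjusted p = 0.000189), and *Slc12a2*, an ion cotransporter for fluid secretion, at 816 and 896 CPM against 376, 481 and 423 CPM (1.0, SE 0.18, adjusted p = 0.00428, and 0.115 in one fit of all 4 groups of the series). Of 20 secretory and transport genes 1 was thus called higher and 1 lower, beside 1.97% and 1.2% of all genes in these cells. Folding genes of the endoplasmic reticulum had 8 of 18 called lower, beside 1.2% of all genes in these cells, and none higher, and 3 to 7 lower with each library left out. *Calr*, calreticulin, was at 189 and 144 CPM against 501, 546 and 588 CPM (-1.70, SE 0.20, adjusted p = 0.000202). *Gpx3*, a secreted glutathione peroxidase, was at 54.0 and 152 CPM against 4.24, 3.73 and 2.65 CPM (4.74, SE 0.42, adjusted p = 1.39e-05), and *Brca2*, a DNA repair protein, at 79.1 and 142 CPM against 10.1, 8.82 and 11.6 CPM (3.40, SE 0.28). *Sult1c1*, a sulfotransferase (2.77), *Chil1*, a chitinase-like protein (2.57), and *Brinp1* (2.27) rose as well, and *Gdf15*, a stress cytokine (-2.96), *Serpinb1b* (-2.24) and *Insig1*, which retains cholesterol sensors (-2.10), fell. The calls of *Sult1c1* and *Gdf15* were lost without MCAO/R + WT replicate 1 (adjusted p = 0.289 and 0.13). *Brinp1* lost its call without sham + WT replicate 2 (adjusted p = 0.0521) or MCAO/R + WT replicate 2 (adjusted p = 0.391). With DESeq2 *Sult1c1* and *Brinp1* were not called (adjusted p = 0.357 and 0.192), and in one fit of all 4 groups of the series neither they (adjusted p = 0.124 each) nor *Serpinb1b* (adjusted p = 0.0734) were called. The total of 351 calls became 191 without MCAO/R + WT replicate 2 and 228 without replicate 1.

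Ciliated ependymal cells, which line the ventricles, lay in shared clusters with 95 and 94 cells against 121, 93 and 109. *S100a4*, a calcium-binding protein, was at 602 and 315 CPM against 19.9, 10.4 and 22.9 CPM (log2 fold change 4.66, SE 0.30, adjusted p = 2.55e-05), and *Matn2*, a matrix protein, at 154 and 217 CPM against 14.5, 17.4 and 12.4 CPM (3.65, SE 0.20). The reactive astrocyte list, which was not made for these cells, had 13 of 21 called higher, beside 2.18% of all genes in these cells, and none lower, and 8 to 14 with each library left out. *Gfap* was at 568 and 478 CPM against 102, 113 and 118 CPM (2.24, SE 0.13, adjusted p = 9.22e-06), and *Vim* at 4430 and 3130 CPM against 1230, 1506 and 1297 CPM (1.49, SE 0.15). *Hsp90aa1*, a stress-inducible chaperone, was at 1321 and 1408 CPM against 4314, 4778 and 4707 CPM (-1.75, SE 0.11, adjusted p = 1.77e-05). Motile cilium genes had 4 of 13 called lower (3.02% of all genes), and 1 to 4 with each library left out, among them *Ccdc153* (-0.87, SE 0.11), which also served to name the type. *Foxj1*, the master regulator of motile cilia, was at 388 and 363 CPM against 385, 362 and 401 CPM. *Krt15*, a keratin, fell to 29.0 and 36.4 CPM from 163 to 228 CPM (-2.61, SE 0.19). *Cebpd*, an acute-phase transcription factor (3.57), *Osmr* (3.26) and *Zbtb16* (5.61) were also higher, and *Mrln* (-2.33), *Ucma* (-1.98), *Arntl*, a clock gene (-1.92), *Hist1h4i* (-1.86) and *Calb1*, a calcium buffer (-1.85), lower. *Ucma* and *Arntl* lost their calls without MCAO/R + WT replicate 1 (adjusted p = 0.0912 and 0.0546). The total of 636 calls became 165 without MCAO/R + WT replicate 1 and 313 without sham + WT replicate 2.

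Neurons and neuroblasts were sparse, with 89 and 265 cells against 185, 111 and 132, and dissociation of adult brain recovers few mature neurons. The neuroblast genes *Dcx*, at 573 and 622 CPM against 522, 565 and 608 CPM, and *Sox11*, at 1826 and 1792 CPM against 1831, 1870 and 2038 CPM, were not called. Both also served to name the type. None of 18 neurogenesis genes was called, beside 0.832% of all genes in these cells, so this count is near the share of all genes. *Rbm3*, a cold-inducible RNA-binding protein, was at 601 and 699 CPM against 407, 325 and 334 CPM (log2 fold change 0.87, SE 0.13, adjusted p = 0.00835). *Trpc4*, a cation channel, was at 24.9 and 39.2 CPM against 90.6, 81.5 and 94.5 CPM (-1.41, SE 0.19, adjusted p = 0.00385), and *Tmem108*, a membrane protein of synapses, at 61.3 and 62.1 CPM against 113, 124 and 144 CPM (-1.04, SE 0.15, adjusted p = 0.00501). The groups were separate in these 3 genes. *Samd12* (-1.51), *Syn2*, a synapsin (-1.22), *Samd4* (-1.10) and *Lama2*, a laminin chain (-1.07), were also called lower, and each lost its call without 2 or more of the libraries (adjusted p from 0.0557 to 0.197) and in one fit of all 4 groups of the series (adjusted p from 0.0573 to 0.561). *Rbm3* lost its call without sham + WT replicate 2 or 3 or without MCAO/R + WT replicate 2 (adjusted p from 0.0518 to 0.0836) and in one fit of all 4 groups of the series (adjusted p = 0.337). Of 96 genes called in this type, the total became 37 without sham + WT replicate 1, 40 without replicate 2 and 54 without replicate 3. The capillary endothelium of the choroid plexus, the neutrophils and the B cells had under 20 cells in too many libraries to be tested.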

How the data were processed

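Per the file headers, the authors made the deposited counts (whole-number UMI counts per gene and cell, not normalized) with Cell Ranger 7.0.1, and the submitters' processing notes name STAR and mm10. Cells within the limits given in the report were kept. Predicted doublets were removed by an automatic threshold, which marked 3.613% to 5.456% of cells in 4 libraries and 0% in sham + WT replicate 1, where the 6% of cells with the highest scores (828) were removed instead. Cells were clustered with scanpy 1.11.5 (2000 variable genes, 30 components, 15 neighbours, Leiden resolution 1.5) and named from fixed markers. Raw counts were summed per library and cell type, for libraries with at least 20 cells of that type, and tested with edgeR 4.0.16 (quasi-likelihood, TMM, low-count filter, Benjamini-Hochberg). SE is the log2 fold change over the square root of F. P-values measure the spread between libraries, each from 1 mouse. Libraries held 110423176 to 144393940 UMIs. The comparison and gene lists were chosen with earlier results of these data known. Genes were named from the lists, from the 10 called in most types per direction, and from the 6 largest called changes per direction and type with separate groups, at least 50 CPM in the higher group and at least 10% of the level in the top type. *Cd163* and *Apod* were named after their values were seen. Some genes that met these rules are not reported here. The script was tested on simulated data. DESeq2 1.42.0 and other settings were tried as alternatives. Promoters were searched on both strands for 7 motifs.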

Additional observations from a re-analysis of the deposited data

How the results depend on the processing

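Among 228 genes picked for a cell type by the rules for named genes, 2677 of 2826 alternative values kept their direction and their side of the threshold, 130 were no longer called, 15 became called and 4 turned direction. The turned values were those of *Lpl* in microglia (-0.00959 without MCAO/R + WT replicate 1, 3.87 without replicate 2), *Ifit3* in oligodendrocytes (-1.21 and 4.68), *Il33* in oligodendrocytes (-2.24 and 0.376) and *Klk6* in oligodendrocytes (2.02 without the sham + WT cluster it leads). Many of these genes were picked because they were called in these same data, so their stability is not that of all calls. Of 4145 microglial calls 1796 to 1998 were kept without a sham + WT library. Of 249 pericyte calls 42 were kept without sham + WT replicate 2.

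Totals of calls moved by more than 1.5 times as follows. With no filter on low counts they were 1981 in border-associated macrophages, 1059 in pericytes, 577 in fibroblast-like cells, 2126 in astrocytes, 711 in choroid plexus epithelial cells, 1422 in ependymal cells and 365 in neurons with neuroblasts. With DESeq2 they were 407 in pericytes and 113 in fibroblast-like cells. With doublets kept they were 640 in pericytes and 3 in fibroblast-like cells, and the share of pericytes differed by 2.52 points. With 10% mitochondrial UMIs as the limit fibroblast-like cells had 6. With all 4 groups of the series in one fit the totals were 3 in fibroblast-like cells, 696 in astrocytes, 75 in choroid plexus epithelial cells, 298 in ependymal cells and 16 in neurons with neuroblasts, and with 50 cells per library choroid plexus epithelial cells had 191. The 10% limit could not be fitted in choroid plexus epithelial cells, where 1 MCAO/R + WT library was left with under 20 cells. Without the filter 40.4% of calls were higher in fibroblast-like cells and 50.2% in choroid plexus epithelial cells (62.1% with it), and with DESeq2 46.9% in fibroblast-like cells and 37.1% in neurons with neuroblasts (47.9% with edgeR).

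With each library left out in turn the totals ranged from 1805 to 6838 in microglia, 486 to 2071 in border-associated macrophages, 2461 to 4230 in endothelial cells, 44 to 285 in pericytes, 1216 to 1869 in smooth muscle cells, 0 to 525 in fibroblast-like cells, 426 to 892 in astrocytes, 191 to 317 in choroid plexus epithelial cells, 165 to 704 in ependymal cells and 37 to 110 in neurons with neuroblasts. The cause of these differences was not tested. The lone library of a group was then assumed to vary like the other group.

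Groups share the replicate numbers 1 and 2, and same-numbered libraries correlated between -0.0929 and 0.239 in their deviations, so the numbers were not taken as a pairing. With the replicate number as a block the totals were 711 in border-associated macrophages, 981 in pericytes, 780 in choroid plexus epithelial cells and 18 in neurons with neuroblasts, and 13 of 225 gene values lost their call, among them *Trpc4* and *Tmem108* in neurons with neuroblasts (adjusted p = 0.0726 and 0.0879). *Sele* in endothelial cells was another of them (adjusted p = 0.0523). No paired analysis was possible in fibroblast-like cells because the libraries used shared too few numbers.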
